A study of Mus musculus with 2 samples.

Results

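The 9 genes described here, *L1cam*, *Chl1*, *Nrcam*, *Nfasc*, *Ncam1*, *Ncam2*, *Cntn1*, *Cntn2* and *Cntn5*, encode cell adhesion molecules of the L1, NCAM and contactin families, and were chosen by symbol out of 33207 counted genes. All 9 were counted in both libraries. Their unique molecular identifiers (UMIs) were taken from 2 single-cell RNA sequencing libraries of mouse embryos at E11.5 and E12.5. Every cell of both libraries carried the same alleles, a Cre driver in *Egr2* (also called *Krox20*) with a Cre-dependent Tomato reporter in the Rosa26 locus (*Egr2Cre/+; R26-Tomato*), and had passed a sort for Tomato after dissection of the meninges together with dorsal root ganglia and nerve roots. *Egr2* is a marker of boundary cap cells, the neural crest cells that sit where nerve roots enter and leave the spinal cord, so the reporter labels cells that express the driver and all of their descendants. Each library was 1 pooled litter, with no Tomato-negative cells beside it, so stage, litter and library cannot be told apart, and no p-value is given anywhere. The intervals below are 95% intervals of the counting error alone.

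Cell adhesion molecules of these families carry immunoglobulin and fibronectin domains outside the cell and bind copies of themselves or each other on neighbouring membranes. L1, CHL1, NrCAM and neurofascin, the L1 family, pass through the membrane and bind ankyrins on the inside. NCAM1 can carry polysialic acid, which weakens adhesion, and the contactins have no part inside the cell, being held by a lipid anchor. In peripheral nerves they are known from axon growth and bundling, from the contact of axons with Schwann cells and, later, from the node of Ranvier.

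Cells were divided by raw UMIs into glia, with *Sox10* and no *Isl1*, neurons, with *Isl1* and no *Sox10*, cells with both, and other cells with neither. *Sox10* is a transcription factor of neural crest and glia, and *Isl1* one of sensory, autonomic and motor neurons. At E11.5, 833 of 1431 barcodes were kept, of which 413 were glia, 203 neurons, 104 had both markers and 113 neither. At E12.5, 3496 of 3762 were kept, with 1213 glia, 1337 neurons, 286 with both and 660 with neither. The median depth was 11601 UMIs per E11.5 cell and 6140 per E12.5 cell, and cells with neither marker were the shallowest, at 6518 and 5155. The classes held the markers of their names, since all 12 neuronal reference genes (among them *Stmn2* and *Tubb3*) were over 2-fold higher in neurons and all 6 glial ones (among them *Foxd3* and *Erbb3*) over 2-fold higher in glia at both stages. The 3 motor neuron markers summed to 0.429 CPM (UMIs of a gene per 1000000 UMIs of the class) in E11.5 neurons and 0.442 in E12.5 neurons, with *Mnx1* at 0 in both. Globin UMIs summed to 631 CPM in E12.5 neurons and 12.8 in E12.5 glia. Only some glia held a boundary cap gene, the cell type named in the labels: after thinning every cell to 2000 UMIs, *Prss56* was found in 9.93% of E11.5 and 19.1% of E12.5 glia, and *Egr2* in 5.33% and 5.96%. Of the cell barcodes kept, 7 occurred in both libraries.

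Between neurons and glia the 9 genes divided into a glial gene, a set of neuronal genes and a shared set. *Chl1* was higher in glia at both stages. *Cntn1*, *Cntn2*, *Nfasc* and, less steeply, *Cntn5* were higher in neurons. *L1cam*, *Nrcam* and *Ncam1* were within 2-fold, and *Ncam2* was so at E11.5 but glial at E12.5. At E11.5, 3 of the 7 members with at least 100 UMIs in both classes together were 2-fold higher in neurons (*Cntn1*, *Cntn2* and *Cntn5*), against 8.4% of all 7658 such genes, and 1 was 2-fold higher in glia, against 14.5%. At E12.5, 4 of 9 members were 2-fold higher in neurons, against 11.6% of 10415 genes, and 2 of 9 in glia (*Chl1* and *Ncam2*), against 18.5%. The median ratio of neurons over glia was 1.46 and 1.26 over the members, beside 0.922 and 0.929 over all genes tested.

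**Figure D1:**
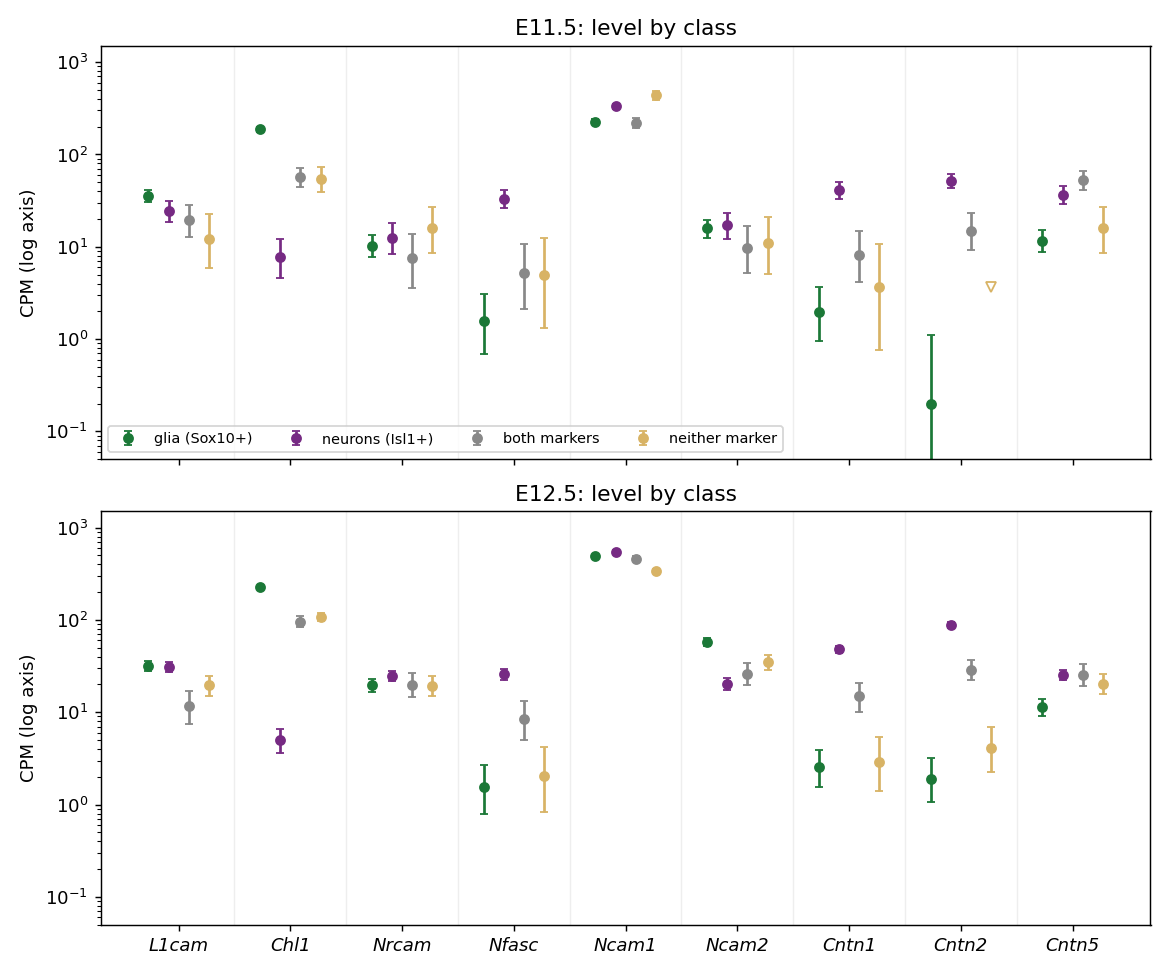
Level of each member in CPM (log axis) in glia, neurons, cells with both markers and cells with neither, at E11.5 (top) and E12.5 (bottom). Points are summed UMIs over the class total with 95% exact Poisson intervals, an open triangle marks the CPM that 3 UMIs would give where none was found, and *Chl1* lies at 187 and 225 CPM in glia against 7.73 and 4.97 in neurons.

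*Chl1*, the close homologue of L1 (ENSMUSG00000030077, chr6:103487353-103727508, plus strand, GRCm39), was the glial member. It stood at 187 CPM (175–199) in E11.5 glia and 225 CPM (215–236) in E12.5 glia, and in neurons at 7.73 (4.58–12.2) and 4.97 (3.63–6.65). Glia thus exceeded neurons 24.2-fold (15.2–40.9) at E11.5 and 45.3-fold (33.7–62.4) at E12.5. In the order of ratios from the most glial gene it took place 24 of 7658 and place 16 of 10415. After thinning, 29.3% of glia and 3.94% of neurons held a *Chl1* UMI at E11.5, and 34.0% and 1.08% at E12.5, while without thinning the shares were 67.1% and 6.40%, then 57.2% and 2.32%. Cells with both markers lay between the classes, at 56.9 and 96.2 CPM, and cells with neither at 53.9 and 108. The size of the ratio followed the definition of a class: with 2 UMIs required of the marker gene it became 73.3-fold and 75.2-fold, and with the cells of both markers added to the neurons 7.28-fold and 10.0-fold.

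*Cntn2*, the gene of the axonal glycoprotein TAG-1 (ENSMUSG00000053024, chr1:132437165-132470994, minus strand, GRCm39), was the most neuronal member. It stood at 52.0 CPM (43.1–62.1) in E11.5 neurons and 88.0 (82.0–94.3) in E12.5 neurons, against 0.198 CPM, from 1 UMI in 413 cells, and 1.92 (1.07–3.16) in glia. The ratio of neurons over glia was 263 (46.3–10473) at E11.5, which rests on that 1 UMI, and 45.9 (27.7–82.4) at E12.5. It was found in 6.40% of thinned neurons and 0.242% of thinned glia at E11.5, and in 13.4% and 0.170% at E12.5. None of the 113 cells with neither marker held a *Cntn2* UMI at E11.5 (a count of 0 allows up to 2.65%), and at E12.5 such cells stood at 4.09 CPM.

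*Cntn1*, which encodes contactin 1 or F3 (ENSMUSG00000055022, chr15:91948938-92240393, plus strand), was neuronal as well, at a smaller ratio. Its level was 40.8 CPM (33.0–49.9) in neurons and 1.98 (0.947–3.63) in glia at E11.5, and 48.1 (43.7–52.8) and 2.55 (1.56–3.95) at E12.5. Neurons exceeded glia 20.6-fold (10.8–44.4) and 18.8-fold (12.03–31.1). *Nfasc*, the gene of neurofascin (ENSMUSG00000026442, chr1:132492428-132669564, minus strand), stood at 33.1 CPM (26.1–41.3) in neurons and 1.58 (0.682–3.11) in glia at E11.5, and at 25.7 (22.5–29.3) and 1.53 (0.792–2.68) at E12.5. Its ratio was 20.9 (10.1–50.2) at E11.5, from 85 UMIs in both classes and so under the minimum of 100, and 16.8 (9.43–33.0) at E12.5. The glial UMIs of these genes were few: 10 and 20 of *Cntn1*, 8 and 12 of *Nfasc* at E11.5 and E12.5.

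Among the 8 members with a matched promoter, those with a steep class difference held fewer CG dinucleotides than the rest. RefSeq promoter windows of 300 bases (250 before and 50 after the start, build GRCm38.p6) were matched for all members but *Ncam1*, 13 windows in all. The 7 windows of *Chl1*, *Cntn1*, *Cntn2* and *Nfasc* had a GC content between 34.7% and 61.3% and from 3 to 13 CG dinucleotides. The 6 windows of *L1cam*, *Nrcam*, *Ncam2* and *Cntn5* had a GC content between 63.7% and 75.7% and from 22 to 41 CG dinucleotides. The ranges of the groups did not overlap. The 2 windows of *L1cam* share most of their bases, as do the 2 of *Cntn5*, so these are not separate observations. *Cntn5* at both stages and *Ncam2* at E12.5 also passed 2-fold between neurons and glia. Over all 32851 promoters of the table the median was 7 CG dinucleotides, with quartiles of 3 and 20. This grouping was made with the expression values known and is given as a description. Whether CG counts differ between genes with and without a steep class difference was not tested over all genes. The first listed window of 6 members is printed 5′ to 3′ on the gene's strand, with each CG in capitals, to show both kinds.
Chl1 promoter, chr6:103510626-103510925, plus strand: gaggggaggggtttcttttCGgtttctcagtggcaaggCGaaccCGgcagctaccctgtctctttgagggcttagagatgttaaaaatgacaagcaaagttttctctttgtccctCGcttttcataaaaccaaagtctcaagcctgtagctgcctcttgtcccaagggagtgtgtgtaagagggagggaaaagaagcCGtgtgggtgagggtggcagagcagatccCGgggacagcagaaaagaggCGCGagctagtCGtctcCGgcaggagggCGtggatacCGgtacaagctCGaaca
Cntn2 promoter, chr1:132542891-132543190, minus strand: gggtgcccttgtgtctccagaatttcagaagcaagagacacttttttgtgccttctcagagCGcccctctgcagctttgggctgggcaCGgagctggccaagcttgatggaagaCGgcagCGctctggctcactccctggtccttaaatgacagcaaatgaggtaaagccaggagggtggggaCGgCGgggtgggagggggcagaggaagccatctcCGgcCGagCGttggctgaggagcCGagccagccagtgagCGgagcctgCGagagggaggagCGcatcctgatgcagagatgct
Cntn1 promoter, chr15:92050915-92051214, plus strand: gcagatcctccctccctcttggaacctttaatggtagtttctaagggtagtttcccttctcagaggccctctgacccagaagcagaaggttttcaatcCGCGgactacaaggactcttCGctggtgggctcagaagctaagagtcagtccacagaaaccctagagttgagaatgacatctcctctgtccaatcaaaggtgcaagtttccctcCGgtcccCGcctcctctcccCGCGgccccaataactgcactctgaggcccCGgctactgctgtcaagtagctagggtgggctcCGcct
Nfasc promoter, chr1:132707277-132707576, minus strand: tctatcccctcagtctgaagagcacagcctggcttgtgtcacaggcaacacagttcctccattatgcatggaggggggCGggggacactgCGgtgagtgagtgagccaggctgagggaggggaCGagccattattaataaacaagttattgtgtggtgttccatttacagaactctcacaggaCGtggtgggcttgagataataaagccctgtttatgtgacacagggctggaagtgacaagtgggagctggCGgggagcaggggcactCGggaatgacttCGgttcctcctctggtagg
Nrcam promoter, chr12:44328635-44328934, plus strand: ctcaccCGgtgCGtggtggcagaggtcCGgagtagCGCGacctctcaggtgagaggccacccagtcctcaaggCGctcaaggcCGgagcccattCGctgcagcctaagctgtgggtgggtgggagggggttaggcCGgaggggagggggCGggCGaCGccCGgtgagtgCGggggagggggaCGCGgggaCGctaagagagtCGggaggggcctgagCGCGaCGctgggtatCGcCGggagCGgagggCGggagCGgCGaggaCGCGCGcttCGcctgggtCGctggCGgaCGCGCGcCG
Ncam2 promoter, chr16:81200447-81200746, plus strand: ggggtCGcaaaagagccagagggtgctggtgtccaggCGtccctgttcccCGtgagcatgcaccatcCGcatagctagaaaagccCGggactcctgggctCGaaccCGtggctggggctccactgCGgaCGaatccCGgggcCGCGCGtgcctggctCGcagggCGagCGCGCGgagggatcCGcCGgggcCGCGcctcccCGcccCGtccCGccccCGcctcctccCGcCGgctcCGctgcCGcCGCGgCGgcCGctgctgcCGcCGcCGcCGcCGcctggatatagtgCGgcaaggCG
*Cntn2* holds 13 CG dinucleotides in this window and *Nfasc* 7, while *Nrcam* holds 37 and *Ncam2* 41. Of 3 short motifs searched on both strands, ACAAAG (the core of SOX sites, in 18.7% of all promoters) occurred once in the window of *Chl1*, CAGCTG (an E-box, 16.3%) once in the second window of *Nfasc*, and TAATTA (a homeodomain core, 5.29%) in none of the 13.

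*Cntn5*, which encodes contactin 5 or NB-2 (ENSMUSG00000039488, chr9:9658790-10904780, minus strand), was neuronal to a lesser degree and very uneven from cell to cell. It stood at 36.5 CPM (29.2–45.1) in neurons and 11.7 (8.87–15.0) in glia at E11.5, and at 25.5 (22.3–29.0) and 11.4 (9.13–14.0) at E12.5. The ratio was 3.13 (2.22–4.44) and 2.25 (1.75–2.90). Unlike the other neuronal members it was no lower in cells with both markers, at 52.4 CPM (40.9–66.3) at E11.5 and 25.6 (19.3–33.3) at E12.5. Only 12.3% of E11.5 neurons held a UMI without thinning, at 3.40 UMIs per such cell and up to 22 in 1 cell, and the 2 richest neurons held 42.4% of its neuronal UMIs. The 4 richest glia of E11.5 held 55.9% of its glial UMIs. Single cells therefore weigh more on its values than the counting intervals show.

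*Ncam1* (ENSMUSG00000039542, chr9:49413436-49710357, minus strand) was widespread. It stood at 228 CPM (215–241) in glia, 332 (309–356) in neurons, 220 (195–246) in cells with both markers and 438 (394–486) in cells with neither at E11.5. At E12.5 the levels were 491 (475–506), 552 (537–567), 461 (433–491) and 339 (320–360). Neurons exceeded glia 1.46-fold (1.33–1.60) and 1.12-fold (1.08–1.17), so the classes differed beyond counting error but by less than 2-fold. A UMI was found in 87.2% of glia and 85.2% of neurons at E11.5 and in 87.4% and 82.6% at E12.5, without thinning. The gene was near 0 in the cells with most UMIs of myeloid markers at E12.5, with 1 UMI in 31 cells (4.01 CPM), although these cells were deeper (median 8772 UMIs) than glia (6088). *Chl1* also had 1 UMI in those 31 cells, and *Nfasc*, *Ncam2*, *Cntn1* and *Cntn2* had none, where 0 of 31 cells allows up to 9.68%. The share of E12.5 neurons with a *Chl1* UMI was 2.32% (median 6475 UMIs). In these cells, taken as a gauge of free RNA, it was 3.23% (0.0816–16.7), from 1 cell. *Cntn1*, *Cntn2* and *Nfasc* were found in 1.65%, 1.24% and 0.907% of E12.5 glia. For these 3 genes and for *Chl1*, 31 cells are too few to gauge free RNA, and its part was not tested.

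*Ncam2*, also called OCAM (ENSMUSG00000022762, chr16:80997585-81425532, plus strand), was even between the classes at E11.5 and glial at E12.5. At E11.5 it stood at 15.8 CPM (12.5–19.7) in glia and 17.2 (12.3–23.4) in neurons, with a ratio of neurons over glia of 1.09 (0.724–1.61), whose interval holds 1 and which lay between 0.680 and 1.28 over the alternative settings. At E12.5 it stood at 57.5 (52.3–63.0) in glia and 20.4 (17.6–23.6) in neurons, 2.81-fold (2.36–3.35) higher in glia. It was found in 3.63% of thinned glia and 3.45% of thinned neurons at E11.5, and in 10.3% and 3.25% at E12.5. Cells with neither marker stood at 11.02 and 34.7 CPM.

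*L1cam* (ENSMUSG00000031391, chrX:72897378-72939711, minus strand), the gene that gives the L1 family its name, differed by less than 2-fold between the classes. Glia stood at 35.6 CPM (30.6–41.2) and neurons at 24.5 (18.5–31.7) at E11.5, and at 31.7 (27.9–35.9) and 30.8 (27.3–34.7) at E12.5. The ratio of neurons over glia was 0.688 (0.502–0.932) and 0.973 (0.817–1.16). Cells with both markers stood at 19.5 (12.7–28.5) and 11.6 (7.52–17.2) CPM, under both classes beyond the counting intervals at E12.5 alone. The order of the classes was not stable: the ratio was 1.08 at E11.5 after thinning to 2000 UMIs and 1.49 at E12.5 when cells with markers of another type were left out. That setting drops cells with 2 UMIs of another type's markers. Mesenchymal markers summed to 498 CPM in E12.5 glia and 82.7 in E12.5 neurons, so it can leave out glia as well. The cells with myeloid markers at E12.5, which give a gauge of free RNA, held 4 *L1cam* UMIs in 4 of 31 cells (12.9%, 3.63–29.8; 16.0 CPM, 4.37–41.0), beside 17.2% of glia and 16.7% of neurons without thinning. These intervals, from 4 UMIs, cover the values of both classes and are too wide to set a level of free RNA for *L1cam*. The same cells held *Ncam1* at 4.01 CPM, and a cluster of 149 other E12.5 cells held *L1cam* at 0 CPM. The part of free RNA in the *L1cam* levels was not tested. *Arhgap4* overlaps the *L1cam* locus on the same strand, with 46 and 198 UMIs of its own. *Nrcam* (ENSMUSG00000020598, chr12:44375287-44651976, plus strand) was within 2-fold at both stages, with 10.3 CPM (7.67–13.5) in glia and 12.5 (8.34–17.9) in neurons at E11.5 and 19.7 (16.7–23.0) and 24.8 (21.6–28.2) at E12.5. Its ratio was 1.21 (0.742–1.95), from 81 UMIs, and 1.26 (1.02–1.56).

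**Figure D2:**
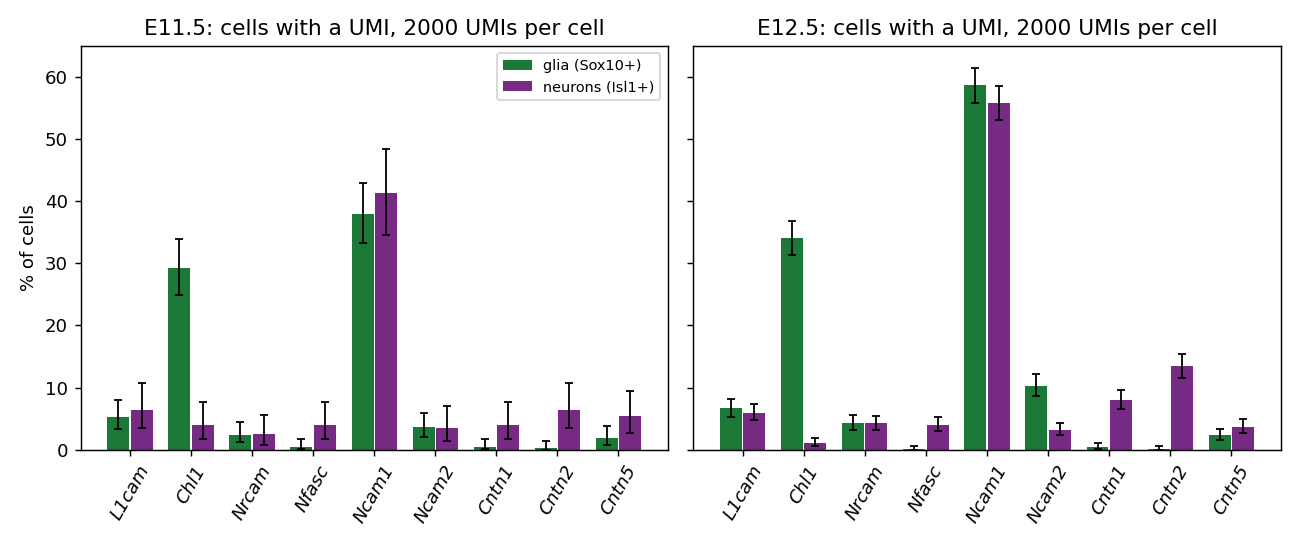
Percent of glia and neurons with at least 1 UMI of each member after thinning every cell to 2000 UMIs, at E11.5 (left) and E12.5 (right), with 95% exact binomial intervals. *Chl1* was found in 34.0% of glia and 1.08% of neurons at E12.5, *Cntn2* in 0.170% and 13.4%, and *Ncam1* in over 50% of both classes at that stage.

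From E11.5 to E12.5 the 2 NCAM genes were the members with over 2-fold higher levels in glia. In glia, *Ncam1* was 2.16-fold (2.02–2.30) and *Ncam2* 3.64-fold (2.86–4.67) higher at E12.5. These were the 2 of 6 members tested that passed 2-fold, against 4.71% of 9430 genes, and none was 2-fold lower, against 0.891%. *Nrcam* was 1.91-fold (1.39–2.67) higher and *Chl1* 1.21-fold (1.12–1.31), while *L1cam*, at 0.891 (0.732–1.09), and *Cntn5*, at 0.975 (0.694–1.38), had intervals that hold 1. In neurons none of the 8 members tested was 2-fold higher, against 4.25% of 8712 genes, and none 2-fold lower, against 1.23%. *Nrcam* came nearest, at 1.99-fold (1.35–3.04), followed by *Cntn2* at 1.69 (1.40–2.07) and *Ncam1* at 1.66 (1.54–1.80), and *Cntn5* was lower, at 0.699 (0.543–0.908). The median ratio of E12.5 over E11.5 was 1.56 over the members in glia and 1.22 in neurons, beside 1.06 and 1.04 over all genes tested. The 2 libraries are all there is to these ratios, and the litter, the depth and the stage differ together.

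Within neurons, several members differed between cells with and without *Neurog1*, a proneural transcription factor that is on in newly forming sensory neurons. *Cntn2* stood at 35.8 CPM in the 139 E11.5 neurons with a *Neurog1* UMI and 91.4 in the 64 without, 0.391-fold, and at 40.0 in 415 and 109 in 922 at E12.5, 0.366-fold. *L1cam* followed the same order, with 17.0 and 42.7 CPM at E11.5 and 15.0 and 37.9 at E12.5. *Nfasc* stood at 21.8 and 60.4 CPM, then at 15.7 and 30.2, and *Ncam1* at 299.95 and 408, then at 370 and 633. *Cntn5* went the other way: it stood at 49.7 CPM with *Neurog1* and 4.42 without (82 and 3 UMIs) at E11.5, and at 31.4 and 22.9 at E12.5. The 2 richest E11.5 neurons held 42.4% of its neuronal UMIs, so the E11.5 difference leans on few cells. The E12.5 difference was 1.37-fold (1.04–1.80), from 88 and 143 UMIs. There the 13 richest neurons held 32.9% of its neuronal UMIs, with up to 17 in 1 cell, so it can lean on few cells too. *Cntn1* was 1.54-fold (0.931–2.67) at E11.5, an interval that holds 1, and 0.558-fold (0.436–0.708) at E12.5. *Nrcam* and *Ncam2* also had E11.5 intervals that hold 1, at 1.29-fold (0.533–3.58) and 0.959-fold (0.472–2.07). At E12.5 they were 0.577-fold (0.408–0.802) and 0.540-fold (0.364–0.781). *Chl1* was 0.483-fold (0.194–1.05) at E12.5, from 8 and 37 UMIs. Of the members with 100 UMIs, 1 of 2 was 2-fold lower with *Neurog1* at E11.5 (*Cntn2*), against 1.66% of 3486 genes, and 2 of 8 at E12.5 (*L1cam* and *Cntn2*), against 3.57% of 8004. None was 2-fold higher, against 1.69% and 1.5%. The median depth was alike in the E12.5 groups, at 6442 and 6508 UMIs, and 11781 and 10321.5 at E11.5.

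**Figure D3:**
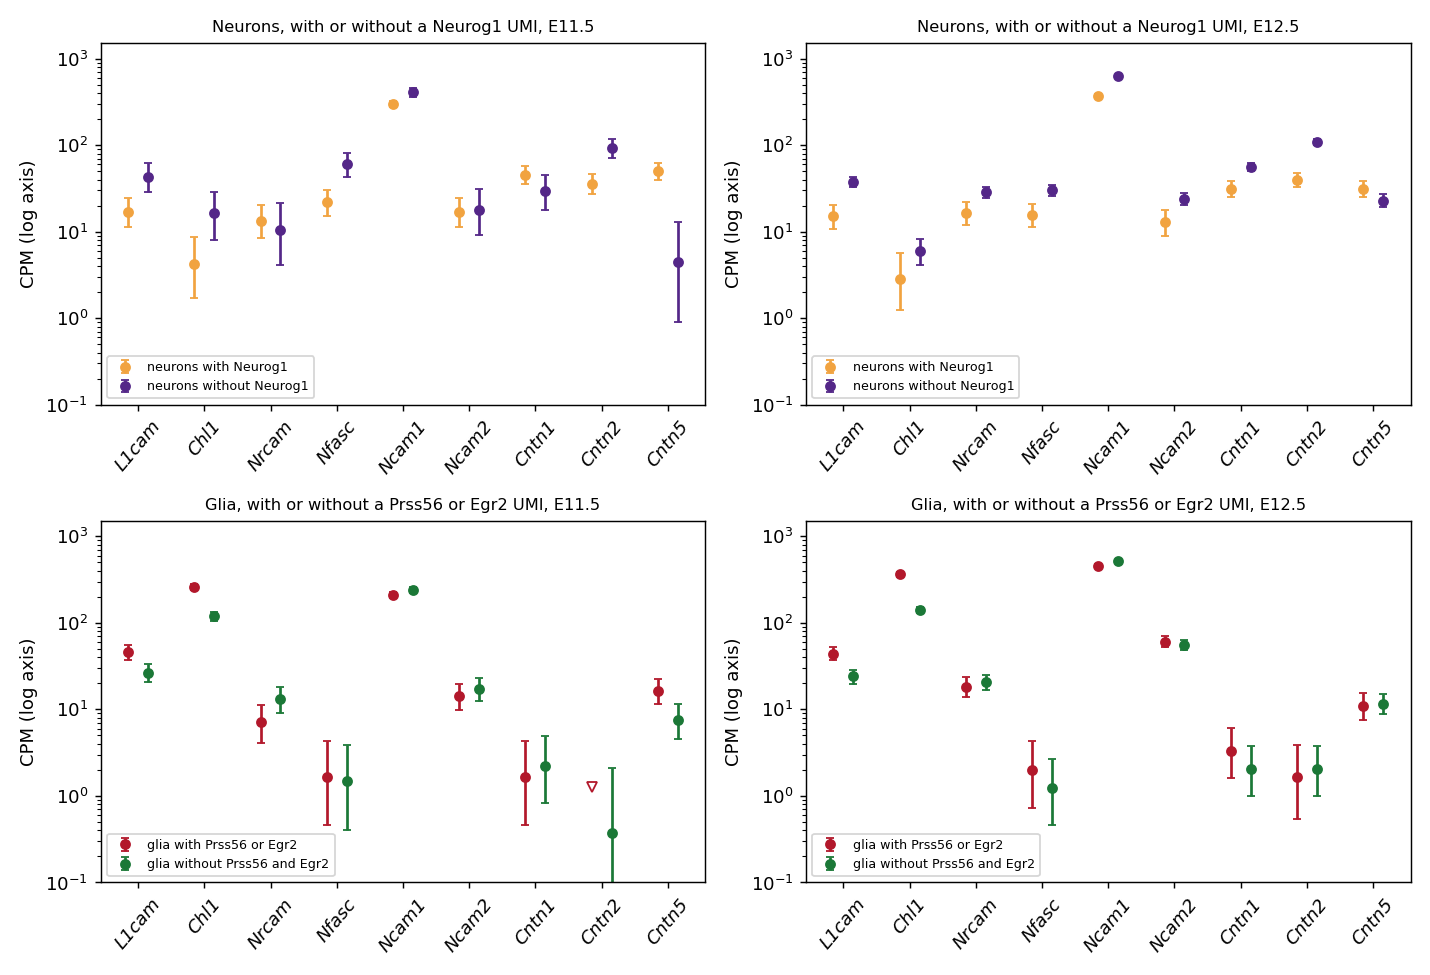
Level of each member in CPM (log axis) in neurons with and without a *Neurog1* UMI (top) and in glia with and without a UMI of *Prss56* or *Egr2* (bottom), at E11.5 (left) and E12.5 (right), with 95% exact Poisson intervals and an open triangle at the CPM of 3 UMIs where none was found (1 interval runs below the axis). *Cntn2* lies lower with *Neurog1* at both stages (35.8 against 91.4 and 40.0 against 109 CPM) and *Chl1* higher with a boundary cap gene (263 against 119 and 362 against 140 CPM).

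Within glia, *Chl1* and *L1cam* were higher at both stages in cells with a boundary cap gene. The 174 E11.5 glia with *Prss56* or *Egr2* held *Chl1* at 263 CPM and the 239 without at 119, a 2.21-fold difference (1.93–2.54). The 465 such glia of E12.5 held it at 362 and the 748 others at 140, 2.58-fold (2.34–2.84). *L1cam* differed 1.71-fold (1.26–2.34) and 1.83-fold (1.42–2.37), at 45.6 and 26.6 CPM and then 44.0 and 24.0. *Ncam1* did not follow, at 0.871-fold (0.774–0.980) and 0.880-fold (0.823–0.941). *Cntn5*, under the minimum of 100 UMIs, was 2.18-fold (1.24–3.94) at E11.5, from 39 and 20 UMIs, and 0.948-fold (0.597–1.48) at E12.5. *Nrcam* was 0.542-fold (0.285–0.994) at E11.5, also under that minimum, and 0.894-fold (0.631–1.26) at E12.5. *Chl1* alone passed 2-fold among the 3 members tested in the E11.5 library and the 5 in the E12.5 library, against 0.475% of 6314 and 1.17% of 8099 genes, and no member was 2-fold lower, against 0.301% and 0.63%. *Chl1* was lower in glia with *Neurog1* (97.2 against 207 CPM at E11.5 and 73.9 against 240.4 at E12.5) and, at E12.5, in glia with *Hes5*, a target gene of Notch signalling (99.96 against 246). *L1cam* was lower at both stages, 0.338-fold (0.176–0.595) and 0.381-fold (0.172–0.736) with *Neurog1*. With *Hes5* it was 0.447-fold (0.201–0.869) and 0.507-fold (0.300–0.811). At E12.5 *Ncam2* was 0.471-fold with *Neurog1* and 0.532-fold with *Hes5*. *Ncam1* was not lower with either, and *Nrcam* was 1.93-fold (1.001–3.57) with *Neurog1* at E11.5. These splits were not set against all genes.

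Cells with neither marker held *Ncam1* at its highest class level at E11.5. Of these 113 cells, the 51 with most UMIs among pericyte markers (such as *Rgs5* and *Pdgfrb*) held *Ncam1* at 634 CPM (560–714), against 158 (103–231) in the 20 with most mesenchymal marker UMIs. The same pericyte rule gave 33 cells at E12.5, with *Ncam1* at 228 CPM (170–299). Of the other members in these pericyte-marker cells, *Nrcam* stood at 9.46 and 17.5 CPM, from 4 UMIs each, and *L1cam* at 2.36 and 17.5, from 1 and 4 UMIs. *Chl1* had 2 and 0 UMIs, *Cntn5* also 2 and 0, and *Nfasc* and *Cntn2* had 0 at both stages, and *Ncam2* and *Cntn1* had 0 in the E11.5 cells and 1 each in the E12.5 cells. The 329 cells with mesenchymal markers at E12.5 held *Chl1* at 142 CPM (125–160) and *Ncam1* at 295 (270–321). Summed over its list, the pericyte markers stood at 1351 CPM in the E11.5 cells with neither marker and 225 in those of E12.5, the mesenchymal markers at 520 and 1855. All listed genes of both were detected, but not all were particular to these cells. At E11.5 *Col1a2* stood at 133 CPM in glia and 121 in cells with neither marker, and *Notch3* at 37.1 and 40.4. The remaining listed genes were higher in cells with neither marker than in glia, although *Twist1* and *Prrx1* had only 7 and 1 UMIs there.

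Over 27 clusters, made in each library without the members, *Cntn1*, *Cntn2* and *Nfasc* peaked together. *L1cam*, *Nrcam* and *Ncam1* of the shared set peaked in the same clusters. A cluster of 101 E12.5 cells led by *Prph*, *Nrxn3*, *Sncg* and *Gal* held the highest level of 6 members at that stage, namely *L1cam* (77.6 CPM), *Nrcam* (43.9), *Nfasc* (64.6), *Ncam1* (1167), *Cntn1* (116) and *Cntn2* (246). At E11.5 a cluster of 49 cells led by *Nefl*, *Stmn2* and *Sncg* was highest for the same 6, with *Cntn2* at 158.5 CPM and *Ncam1* at 636. The share of all genes that were highest in these clusters is not given here. Whether the shared peak is particular to the members was not tested. *Cntn5* peaked elsewhere, in clusters led by *Insm1* and holding *Dll1* among their leading genes, at 110 CPM in 42 cells of E11.5 and 80.3 in 149 cells of E12.5, where *Cntn2* stood at 1.70 and 6.83 CPM and *L1cam* at 1.70 and 0. *Chl1* was highest in glial clusters, at 272 CPM in 128 E11.5 cells led by *Arhgap40* and at 404 and 402 in E12.5 clusters led by *Zpld1* and *Slc36a2*, the latter with *Prss56* among its leading genes. The E12.5 glial clusters led by *Hes5* and by *Ctnnd2* held it at 57.9 and 73.4 CPM.

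**Figure D4:**
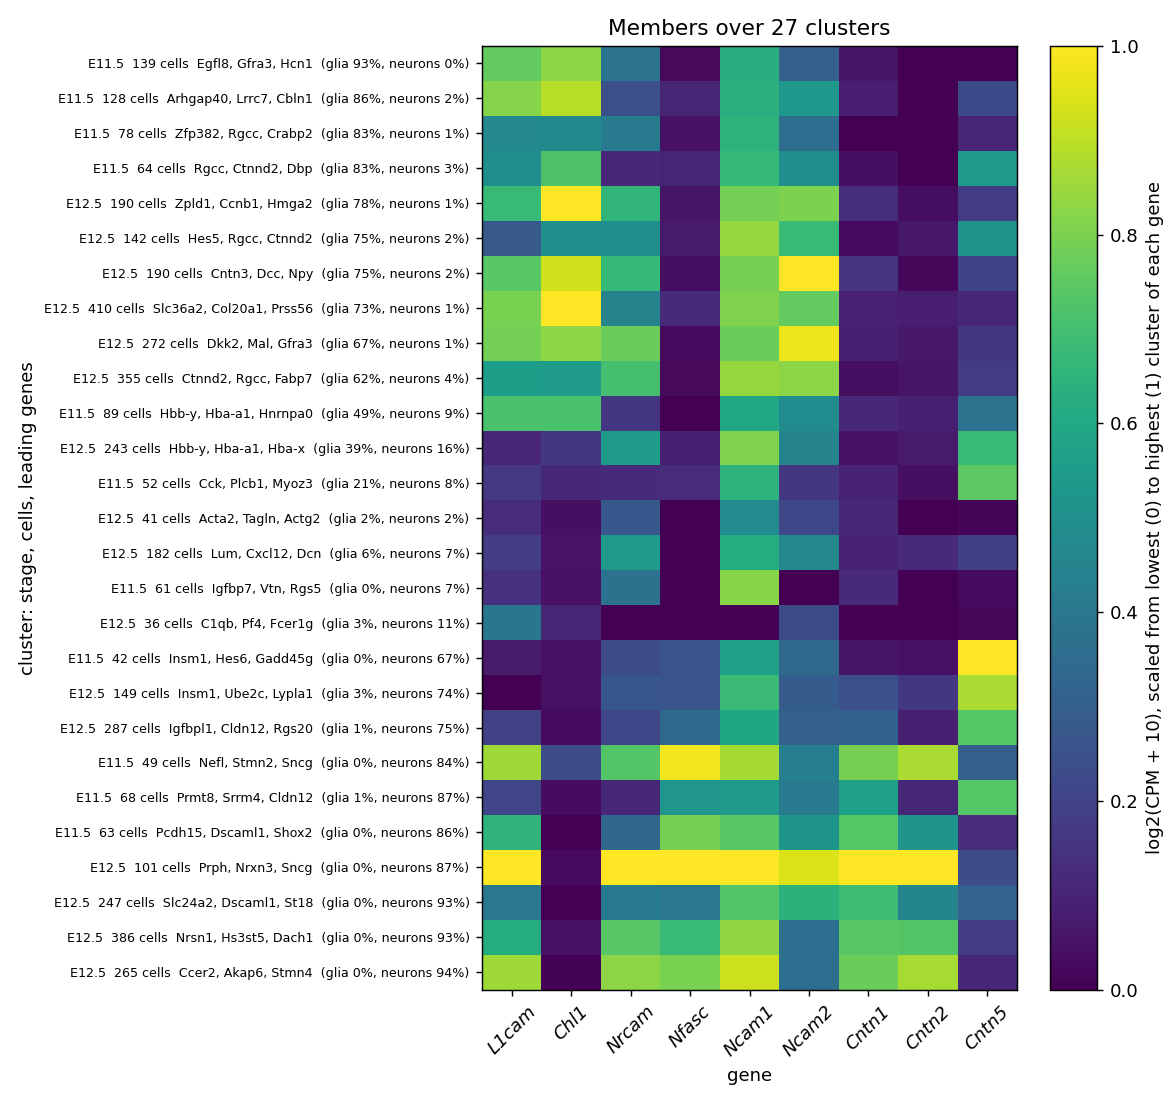
Each member over 27 clusters of both libraries, as log2(CPM + 10) scaled from the lowest (0, dark) to the highest cluster (1, yellow) of each gene, with clusters ordered from glial (top) to neuronal (bottom) and labelled by stage, cells, leading genes and the share of glia and neurons. *Chl1* is bright in the upper rows, *Cntn1*, *Cntn2* and *Nfasc* in the lowest, and *Cntn5* in the *Insm1* clusters (110 and 80.3 CPM).

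The genes whose levels followed each member most closely over the 27 clusters were found among 8459 genes with 100 UMIs in each library. They are a description, since clusters of 1 library share its depth and its cells. *Cntn2* was matched best by *Nefl* (r = 0.981), *P2rx3* (0.981) and *Nefm* (0.980), a neurofilament pair and an ATP-gated channel of sensory neurons. *Cntn1* was matched best by *D130009I18Rik*, *Islr2* and *Gdap1l1* (0.971 to 0.969), and *Cntn1* and *Cntn2* had r = 0.930 with each other. *Chl1* was matched by *Prkcq* (0.971), *2700046A07Rik* (0.963) and *Cytl1* (0.956), and *Cntn5* by *Dll1*, a Notch ligand (0.878), *Tcea1* (0.867) and *Prelp* (0.858). *L1cam* was closest to *Gdpd5* (0.873), *Dpysl3* (0.842) and *Kif1a* (0.793), *Nrcam* to *Usp32* (0.886), *Scaper* (0.871) and *Gstm7* (0.833), *Ncam1* to *Pja1* (0.860), *Pcnp* (0.842) and *Rnd3* (0.840), and *Ncam2* to *Slc22a17* (0.836), *Lyrm4* (0.824) and *Lonp2* (0.794). *Nfasc* had under 100 UMIs at E11.5 and was left out. *Cntn5* had a negative r with *L1cam*, at -0.57.

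Single cells often held more than 1 member. At E12.5, 32.5% of thinned glia and 26.0% of thinned neurons held UMIs of 2 or more, and 21.8% and 32.4% held none. *Ncam1* and *Cntn2* were found together in 132 of 1291 thinned neurons, where the product of their shares gives 96.5 cells, and *Ncam1* and *L1cam* in 58, where it gives 42.9, but in glia the latter pair met in 39 of 1175 cells, where it gives 45.7. *Cntn2* and *Cntn5* met in 2 neurons, where it gives 6.43. *Chl1* and *L1cam* met in 37 of 1175 thinned glia, where the product gives 26.6. *Chl1* and *Ncam1* met in 234, and the product gives 235. These are only some of the pairs of members, and no pairs of other genes were set beside them. Whether such differences are particular to the members was not tested.

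Partner genes of these molecules were found on both sides. Of 33 listed partner genes 32 were counted, and of those with 100 UMIs, 5 of 23 were 2-fold higher in E11.5 neurons and 8 of 26 in E12.5 neurons, against 8.4% and 11.6% of all genes, and 4 and 4 in glia, against 14.5% and 18.5%. Their median ratio of neurons over glia was 1.19 and 1.11. The highest at E12.5 were *Dcx* (57.2), a microtubule protein that binds neurofascin, the amyloid precursor relative *Aplp1* (28.4) and *Ncan* (27.7), the gene of the matrix proteoglycan neurocan. The most glial were *Ptprz1*, a receptor phosphatase that binds contactin 1, 14.3-fold higher in glia, the matrix proteoglycan *Vcan* (8.68-fold) and *Gfra1* (5.34-fold), a GDNF receptor that works with NCAM. A further 3 neuronal genes, chosen after their values were seen, were the ankyrin *Ank3* (13.8 at E11.5 and 5.63 at E12.5), *Cntnap2*, a partner of contactin 2 (39.7 and 13.9), and *St8sia2*, which adds polysialic acid to NCAM (13.8 and 9.47). Of 30 other immunoglobulin adhesion genes, 6 of 22 and 6 of 27 were 2-fold higher in neurons, against the same 8.4% and 11.6%, and 6 and 10 in glia, against 14.5% and 18.5%, with median ratios of 0.915 and 0.707. At E12.5 *Dscaml1* (39.4), *Cadm3* (17.96) and *Cadm1* (4.57) were the most neuronal and *Mcam* (15.1-fold), *Cntn3* (11.3-fold), a further contactin, and *Mag* (9.98-fold), of myelinating glia, the most glial.

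**Figure D5:**
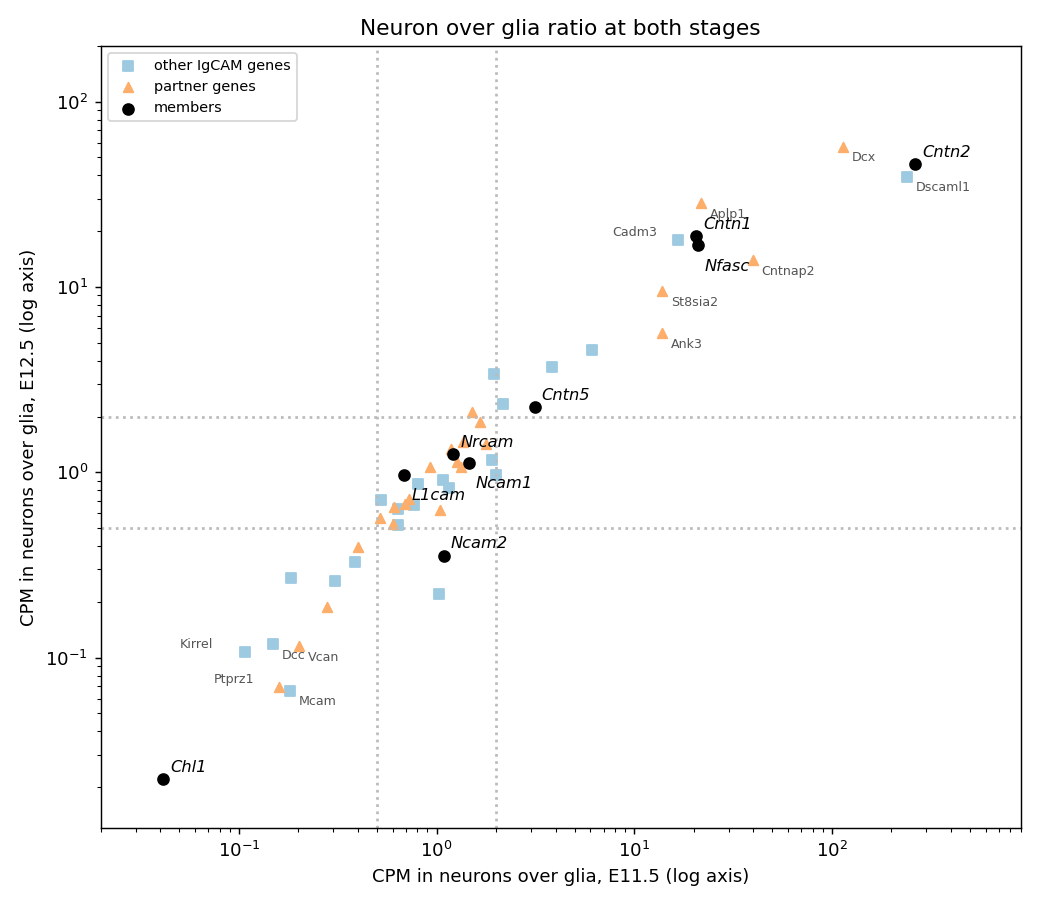
Ratio of CPM in neurons over glia at E11.5 (horizontal) and E12.5 (vertical), both log axes, for the members (black), partner genes (triangles) and other immunoglobulin adhesion genes (squares) with at least 100 UMIs at both stages, dotted lines marking 2-fold. *Chl1* lies at the glial corner, 24.2-fold and 45.3-fold higher in glia, *Cntn2* at the neuronal one, and *Ncam2* below the dotted line at E12.5 alone. All 9 members are drawn, including *Nrcam* and *Nfasc* with under 100 UMIs at E11.5.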

How the data were processed

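The deposited values were counts, whole UMIs of 33207 genes per cell barcode, made by the authors with Cell Ranger 7.0 (7.0.1 in the matrix header) on an mm39 reference from 10x 3′ libraries. Whether intronic reads were counted is not given in the sources used here. The Tomato reporter was not used. Cells with over 10% mitochondrial UMIs, under 2000 (E11.5) or 1000 (E12.5) UMIs or a Scrublet score of 0.2 or more (scanpy 1.11.5) were removed, the last taking 7 and 67 cells. After the filters 9541971 and 22456846 UMIs were left.

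UMIs were summed per class and divided by the class total (CPM), with exact Poisson intervals. Ratios had intervals from the exact binomial of both sums, and shares exact binomial intervals (scipy 1.17.1) after thinning to 2000 UMIs, which left out 0 and 165 cells. A fold of 2 among genes with at least 100 UMIs in both groups counted as called, with no test, since each stage has 1 library and cells are not replicates. Clusters came from 3000 variable genes, 30 components, 15 neighbours and Leiden resolution 1. A count of 0 is given with the value of 3 counts, and UMIs of 3′ ends do not rank levels between genes.

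The named genes are all members, the 3 partner and 3 other adhesion genes at each end of the E12.5 ratio, and the 3 genes most like each member. The members, the lists and the splits of classes were chosen with earlier results of these data known. Within-class splits of all genes by *Neurog1* and by *Prss56* or *Egr2* were set against the background after the members' values were seen. Gene positions are from GENCODE M39 on GRCm39. The ratio and its interval were checked on simulated data. There were 23 alternative settings. Splits of neurons and glia by some further genes are not reported here.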

Additional observations from a re-analysis of the deposited data

Results flagged for a closer look

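The change of *L1cam* from E11.5 to E12.5 ran in opposite directions in the classes, with a ratio of 1.26 (0.944–1.71) in neurons and 0.891 (0.732–1.09) in glia. Both intervals hold 1, and the difference between the classes was not tested. The ratio of *Ncam2* in neurons over glia was 1.09 at E11.5 and 0.356 at E12.5, on either side of 1, and the difference between the stages was not tested, since each is 1 library of 1 litter.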

How the results depend on the processing

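No paired analysis was possible because each stage has 1 library and the labels give no replicate numbers. No 2-fold ratio of a member with at least 100 UMIs changed its direction under the settings with which it was recomputed. Below that minimum, *Cntn2* in glia at E12.5 over E11.5 was 9.70, from 15 UMIs and 1, and 0.688 after thinning. Ratios near 1 also turned, among them those of *Ncam2* and *Nrcam* in neurons over glia at E11.5 and of *Cntn5* between stages in glia. Further, *L1cam* in neurons over glia was 1.08 at E11.5 after thinning (0.688 otherwise) and 1.49 at E12.5 with cells of other markers left out (0.973), and its ratio of E12.5 over E11.5 in glia was 1.48 after thinning (0.891). Counts of members called changed where the threshold or the number of UMIs changed. At 1.5-fold, 3 members were higher at E12.5 in neurons (0 at 2-fold), and at 3-fold 1 was higher in glia than in neurons at E12.5 and 1 at E12.5 in glia (2 each at 2-fold). With at least 500 UMIs, 0 members at E11.5 and 1 at E12.5 were higher in neurons (3 and 4 at 100), from 2 and 5 members tested. After thinning to 2000 UMIs these were 0 and 2, with 0 higher in glia at E11.5 and 0 at E12.5 over E11.5 in glia, and only 1, 6 and 2 members reached 100 UMIs. The classes of that setting cannot be those of the thinned shares above, where *Chl1* was found in 121 E11.5 glia and 8 E11.5 neurons. Its counts of 0 therefore do not set aside those shares, which were 29.3% and 3.94%. With 2 UMIs of *Sox10* or *Isl1*, 1 of 8 members was higher at E12.5 in neurons, beside 418 of all 8717 genes tested. With the mean of the per-cell CPM 1 was higher and 1 lower, beside 381 and 136 of 8712 genes. Leaving out cells with 2 UMIs of another type's markers left 1 member higher in neurons at E11.5, from 4 tested, beside 541 of 5511 genes. Over all genes tested, those 2-fold higher and lower in neurons than in glia numbered 643 and 1109 at E11.5 and 1205 and 1930 at E12.5. They were 1166 and 1904, and 1992 and 2930 at 1.5-fold, 379 and 612, and 767 and 1159 at 3-fold, 1289 and 2094, and 1866 and 3009 with 20 UMIs, 171 and 264, and 577 and 707 with 500, and 135 and 133, and 658 and 772 after thinning. The genes tested at E11.5 and E12.5 numbered 7658 and 10415 at each fold. With 20 UMIs 11647 and 14107 were tested, with 500 UMIs 2354 and 5129, and after thinning 1436 and 5642. With cells of other markers left out, 541 were higher and 645 lower at E11.5, of 5511 tested. Those higher and lower at E12.5 numbered 370 and 107 in neurons and 444 and 84 in glia. They were 979 and 451, and 1142 and 307 at 1.5-fold, 156 and 23, and 167 and 29 at 3-fold, 1229 and 338, and 1314 and 251 with 20 UMIs, 70 and 22, and 114 and 27 with 500, and 169 and 42, and 129 and 33 after thinning. Here the genes tested in neurons and in glia numbered 8712 and 9430 at each fold. With 20 UMIs 12549 and 13098 were tested, with 500 UMIs 3500 and 4103, and after thinning 4223 and 3348. The counts with 500 UMIs and after thinning are lower in part by construction. *Cntn5* in neurons over glia ranged from 2.29 to 6.37 at E11.5 and from 1.91 to 3.08 at E12.5, and *Chl1* in glia over neurons from 7.28 to 73.3 and from 10.0 to 75.2. *Cntn2* had no glial UMI at E11.5, and so no ratio, with classes from panels of genes or a minimum of 4000 UMIs. Of the 24 genes most like the members, 11 were named again at Leiden resolution 2 and 6 by Spearman's correlation. The glial levels of *Cntn1*, *Cntn2* and *Nfasc* are limited by 1 to 20 UMIs.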
